A study of Mus musculus with 36 samples.

Results

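The cytosolic ribosomal protein genes encode the protein part of the ribosome that translates nuclear messages in the cytosol. They were chosen by symbol alone (Rpl or Rps with a number, Rplp0 to Rplp2 and Rpsa, with genes named as pseudogenes left out). Among the annotated genes 85 rows matched, which are 84 genes because Rpl32 and Rpl32l share 1 gene identifier. Of these 84 genes 83 had an expression score among 21650 scored genes, namely 33 of the small subunit and 50 of the large subunit. The remaining gene, Rpl10l, had no score. No filter on low values was applied, so that all 83 scored genes, called members here, entered every comparison.

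RNA was sequenced from mammary glands of females that had been mated at 8 weeks of age, in 12 groups of 3 libraries. The females were lactating until inoculation, and the study describes the injected glands as actively involuting. BALB/c glands received 4T1 cells in Matrigel through the teat shortly after weaning, and C57BL/6 glands received Py230 cells in Matrigel. Matrigel without cells was given to control glands of each strain, and all 4 kinds of gland were taken after 1, 3 or 6 weeks (weeks post-inoculation, w p.i.). 4T1 is a BALB/c mammary tumor line that constitutively expresses firefly luciferase, and Py230 is a line derived from a C57BL/6 mammary tumor driven by the PyMT oncogene under the MMTV promoter. Each model is thus 1 cell line in 1 strain, so that line and strain cannot be told apart in the tumors, whereas the Matrigel glands differ by strain without tumor cells. The labels give C57BL/6 for all Py230 and matching control glands, and the study also names an albino NF-κB reporter substrain without saying which glands, if any, came from it. The study calls its tumor samples independent and the labels only number them, so p-values measure the spread between these libraries.

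A ribosome joins a small subunit, which reads the message, to a large subunit, which forms the peptide bond, and each core protein is needed in fixed proportion. Most ribosomal protein messages start with a short pyrimidine tract (TOP motif) that places their translation under mTOR and LARP1. Ribosome production is known to be raised in growing and dividing cells, including those of mammary tumors. Many of these genes have intronless copies elsewhere in the mouse genome, and a few have a transcribed paralog that is used in particular tissues.

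The copies matter for what was counted, because a 75 base read from a gene can also match a copy. In the transcripts of the mm10 annotation (GENCODE M21), all windows of 75 bases were shared with another place in the annotated transcripts for 25 of 83 members. The median deposited mean normalized count was 389 per kb of transcript over the 35 members that shared at least 90% of their windows and 4733 per kb over the 19 members that shared under 50%. How reads with several matches were treated was not given in the sources used here, and reads of a gene and of its copy cannot be told apart where they are identical. Stretches of 60 coding bases from 4 genes that differed between the Matrigel glands of the strains are shown with the matching stretch of a copy, in which capitals mark the bases that differ. The copies were chosen after their values were seen. Each stretch is the one with the most mismatches away from its ends, so it is not a typical stretch. Rps2 (mm10 chr17:24718116-24721929, plus strand, coding bases 30 to 89) is paired with Rps2-ps13 (chrX:52898588-52899469), which differed at 7 of 879 aligned bases. Rpl29 (chr9:106429454-106431568, plus strand, coding bases 18 to 77) is paired with Gm8210 (chr1:43189156-43189638), with 3 mismatches in 480 bases. Rpl26 (chr11:68901583-68906989, plus strand, coding bases 180 to 239) is paired with Gm13268 (chr2:14626889-14627321), with 6 mismatches in 431 bases. Rps18 (chr17:33951999-33956001, minus strand, coding bases 16 to 75) is paired with Rps18-ps1 (chr4:71370738-71371196), with 8 mismatches in 456 bases.
Rps2: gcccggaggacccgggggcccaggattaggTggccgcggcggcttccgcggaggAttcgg
Rps2-ps13: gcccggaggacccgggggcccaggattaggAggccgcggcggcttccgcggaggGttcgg
Rpl29: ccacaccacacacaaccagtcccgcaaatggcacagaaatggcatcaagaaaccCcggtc
Gm8210: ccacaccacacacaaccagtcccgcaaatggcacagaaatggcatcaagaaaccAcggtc
Rpl26: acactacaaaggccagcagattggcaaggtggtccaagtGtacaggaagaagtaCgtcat
Gm13268: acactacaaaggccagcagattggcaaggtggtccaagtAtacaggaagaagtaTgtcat
Rps18: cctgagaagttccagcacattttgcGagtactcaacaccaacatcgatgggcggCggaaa
Rps18-ps1: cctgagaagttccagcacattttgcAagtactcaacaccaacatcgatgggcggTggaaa

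Expression was deposited as standardized scores: within every library the genes average 0 with an SD of 1, and a difference of 1 equals 1 such SD. Across 19073 genes 1 score unit went with 2.79 log2 units of the authors' mean normalized count, which gives an approximate scale and not a calibrated fold. Read depth cannot be taken from scores, so no counting interval is given. Mammary epithelium markers (Epcam, Krt8 and others, 8 genes) had mean scores of 0.785 to 1.71 in the 36 libraries, and the library with the lowest value was a 4T1 tumor at 6 w p.i. Skeletal muscle markers (Acta1, Ckm and others, 8 genes) ranged from -0.767 to 2.8 between libraries and from -0.653 to 2.8 within the 3 C57BL/6 Matrigel glands at 1 w p.i. In bulk tissue, fewer cells of a type and less RNA per cell cannot be told apart.

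The level shared by the members is described by the median score of the 83 genes in each library, with no test. In 4T1 tumors this median was 0.78, 0.795 and 0.822 at 1 w p.i., then 0.766, 0.697 and 0.639 at 3 w p.i., and 0.937, 0.862 and 0.792 at 6 w p.i. In BALB/c Matrigel glands it was 0.725, 0.637 and 0.728, then 0.667, 0.677 and 0.728, and at 6 w p.i. 0.718, 0.722 and 0.739. The 4T1 tumors lay above their glands in every library at 1 and 6 w p.i. and overlapped them at 3 w p.i. In Py230 tumors the medians were 0.823, 0.767 and 0.765, then 0.787, 0.8 and 0.736, and 0.81, 0.822 and 0.814 at 6 w p.i. In C57BL/6 Matrigel glands they were 0.756, 0.723 and 0.764, then 0.784, 0.781 and 0.8, and 0.842, 0.727 and 0.734. The Py230 tumors were above their glands in every library at 1 w p.i. and overlapped them at both later weeks, and at 6 w p.i. 1 gland was the highest library of that pair of groups. The widest swing was thus in 4T1 tumors, whose mean of medians went from 0.799 ± 0.0212 at 1 w p.i. to 0.701 ± 0.0633 at 3 w p.i. and 0.864 ± 0.0725 at 6 w p.i. (SD, n = 3).

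**Figure D1:**
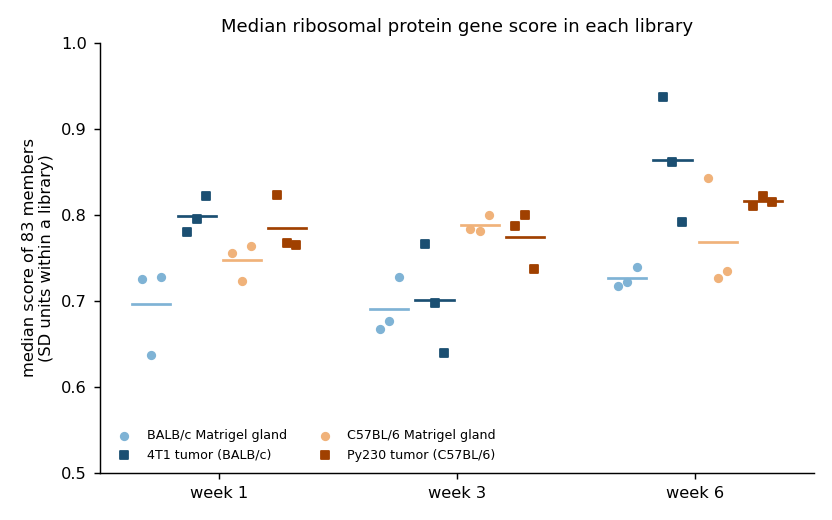
The median score of the 83 members (y axis, SD units within a library, drawn from 0.5) is shown for each of the 36 libraries by week, with a short bar for the mean of 3. 4T1 tumors lie above BALB/c glands at weeks 1 and 6, from 0.78 to 0.822 and from 0.792 to 0.937, and overlap them at week 3.

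At 6 w p.i. most ribosomal protein genes had a higher score in 4T1 tumors than in BALB/c Matrigel glands. By limma with Benjamini-Hochberg adjustment over all genes at 0.05, 59 members were higher and 2 lower, against 38.6% and 21.5% of all genes. The median member difference was 0.17 score units (about 0.46 on the log2 scale) beside 0.07 for all genes. Without overlap between the 3 tumors and the 3 glands, 55 members were higher and 2 lower, as were 41.5% and 25.1% of all genes. The large subunit took the larger share, with 41 of 50 genes higher, while 18 of 33 small subunit genes were higher. Of the difference of 0.17, 0.10 was beyond the median of all genes, and a cyclic loess scaling that moved the median of all genes from 0.07 to 0.00 gave a member median of 0.10 with 42 higher and 4 lower.

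Rpl27, a large subunit protein, had scores of 0.533, 0.559 and 0.538 in 4T1 tumors and 0.103, 0.0459 and 0.268 in BALB/c glands at 6 w p.i. It was thus higher in every tumor, by 0.40 ± 0.05 (SE, limma adjusted p = 5.1e-07). Rpl12, which anchors the stalk that recruits elongation factors, stood at 0.777, 0.845 and 0.722 in tumors and 0.361, 0.381 and 0.59 in glands. The groups did not overlap, the third gland being closest, and the difference was 0.34 ± 0.05 (limma adjusted p = 2.2e-06). The other stalk genes were also higher, Rplp0 by 0.29, Rplp1 by 0.11 and Rplp2 by 0.11. Rpl34 was higher by 0.32, and Rps27a, which is made as a fusion with ubiquitin, by 0.31. Fau, which is made as a fusion with a ubiquitin-like protein, was higher by 0.19. Among the Mdm2 binding proteins that link ribosome assembly to p53, Rpl5 was higher by 0.22 and Rpl23 by 0.20, while Rpl11 differed by 0.18 ± 0.10 (limma adjusted p = 0.11). Rpsa, the laminin receptor precursor at the back of the small subunit, was higher by 0.22, the scaffold Rack1 by 0.19 and the S6 kinase target Rps6 by 0.11. Of the genes mutated in Diamond-Blackfan anemia, 11 of 16 were higher and 0 lower, a share near that of all members (59 of 83, 71.1%). Among them Rps19 stood at -0.04 ± 0.04 and was not called.

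Cell type markers moved in the same comparison. All 8 adipocyte markers were lower (median -1.98), with mean scores over the list of -0.194 to 0.0778 in 4T1 tumors and 1.65 to 1.95 in glands. All 8 muscle markers were lower (median -2.58), 5 of 8 milk protein genes were lower, and 5 of 8 leukocyte markers were higher (median 0.32). Their part in the ribosomal protein difference was not tested.

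At 1 w p.i. 18 members were higher in 4T1 tumors than in BALB/c glands and 0 lower, where 9.91% and 6.72% of all genes were called. The median difference was 0.10, 78 of 83 members were above 0, and 48 had an unadjusted p under 0.05. Rps13 showed the largest called difference among the genes with a deposited mean count of at least 100, at 0.19 (limma adjusted p = 0.030). The count rested on single libraries, being 0 without 4T1 tumor replicate 3 or BALB/c gland replicate 2, 1 without 4T1 tumor replicate 1, and 35 with replicate number as a block. Leukocyte markers were higher for 7 of 8 genes at this time, with mean scores of 1.08 to 1.28 in tumors and 0.366 to 0.876 in glands, and their part was not tested. By limma 0 members were called in either direction at 3 w p.i., with 2 at an unadjusted p under 0.05 and a median difference of -0.01, beside 2.1% of all genes called higher and 1.15% lower.

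Within 4T1 tumors, week 3 was below week 1 for 78 of 83 members with a median of -0.09, and limma called 0 of them, although 46 had an unadjusted p under 0.05. Of all genes 0.374% were called lower. Without 4T1 tumor replicate 1 at week 3 the count was 33 lower, and without replicate 2 at week 1 it was 2 lower. From week 3 to week 6, 66 members rose and 2 fell, against 34.2% and 18.8% of all genes, with a median of 0.21 beside 0.05 for all genes. Rpl12 rose by 0.39 ± 0.05 from 0.417, 0.364 and 0.4 at week 3, and Rpl27 rose by 0.36 ± 0.05. Both sets of 3 values lay apart from those at week 6, and 44 of 50 large and 22 of 33 small subunit genes rose.

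In the Py230 model fewer members were called than in the 4T1 model at 1 and 6 w p.i. At 1 w p.i. limma called 0 members and 3 had an unadjusted p under 0.05, where 0% of all genes were called higher and 0.00924% lower. The median difference was 0.05, and 76 of 83 members lay above 0. At 3 w p.i. 3 members were higher and 4 lower, beside 12.8% and 6.9% of all genes, with a median of -0.02. The 3 higher genes were Rps27l, Rpl22l1 and Rpl17, and the lower genes included Rps4l, Rpl22 and Rps2. This count fell to 1 without Py230 tumor replicate 1, a library whose muscle and adipocyte marker means, -0.767 and 0.442, were the lowest of its group. It fell to 2 or 3 without any 1 of the C57BL/6 glands or tumor replicate 2, and was 13 without tumor replicate 3 and 11 with replicate number as a block.

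At 6 w p.i. 26 members were higher in Py230 tumors and 4 lower, against 28.8% and 18.7% of all genes, with a median of 0.07 beside 0.03. The share of members called higher was thus near that of all genes. Of the 26 genes, 24 (92.3%) were among the 59 higher in 4T1 tumors, of which they made up 40.7%, and these comparisons share no library. For reference, 71.1% of all members were higher in 4T1 tumors, and of all genes higher in Py230 tumors 68.1% were also higher in 4T1 tumors. The remaining 2, Rpl36a and Rps14, were higher in Py230 tumors by 0.19 and 0.13. Rpl27 scored 0.422, 0.397 and 0.347 in tumors and 0.113, 0.0959 and 0.0932 in glands, with no overlap and a difference of 0.29 ± 0.05 (limma adjusted p = 9.2e-05). Rpl17, of the large subunit, was higher by 0.22 and Rps6 by 0.20. Rpl38, which is known for its part in Hox message translation, was higher by 0.45 ± 0.07, and was named after its values were seen since its deposited mean count was under 100. The split depended on the scaling, with 15 higher and 10 lower after fitting a robust line per library, and 19 higher and 6 lower after cyclic loess. The count was 17 without Py230 tumor replicate 2 and 16 without C57BL/6 gland replicate 2 or 3. All 8 adipocyte markers were lower in these tumors and 0 of 8 muscle markers were called, with mean muscle scores of -0.69 to 1.3 in tumors and 1.75 to 2.03 in glands, and their part was not tested. From week 1 to 3 only Rps27l rose in Py230 tumors while Rps4l and Rps12 fell, by limma over all members (12.8% of all genes rose and 7.17% fell). From week 3 to 6 limma called 0 members, with 17 at an unadjusted p under 0.05 and a median of 0.05, where 3.96% of all genes rose and 2.06% fell. That count was 4 without Py230 tumor replicate 1 at week 3.

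**Figure D2:**
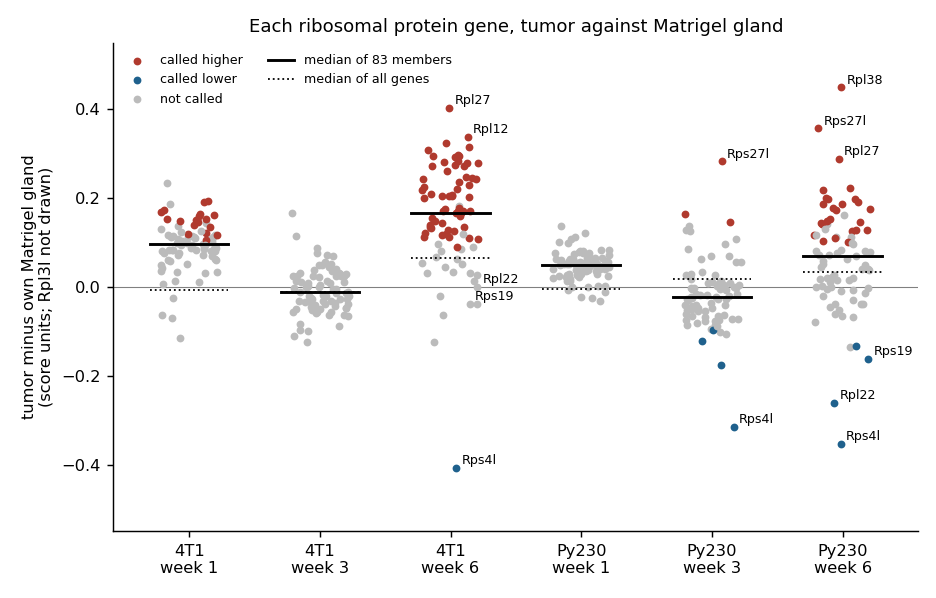
Each point is 1 member's difference between 3 tumors and 3 Matrigel glands of the same strain and week (y axis, score units), colored by the limma call at adjusted p 0.05, with the solid bar at the member median and the dotted bar at the median of all genes. The 4T1 week 6 points center on 0.17 with 59 called higher, and the Py230 week 6 points on 0.07 with 26 higher and 4 lower, while Rpl3l lies outside the axis range and is not drawn.

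The difference between the models was tested by taking each tumor against its own gland and subtracting Py230 from 4T1. At 6 w p.i. 20 members had a larger difference in the 4T1 model and 1 a smaller difference, where 14.4% and 11.1% of all genes were called. The median of the subtracted differences was 0.10, beside 0.03 for all genes. The 20 genes were 14 of the large and 6 of the small subunit, led by Rps18 at 0.32 and Rpl21 at 0.26 (limma adjusted p = 7.6e-05 and 0.00025). Rpl34 followed the same pattern, with 4T1 tumors at 0.498, 0.526 and 0.53 and BALB/c glands at 0.115, 0.165 and 0.302. Py230 tumors were at 0.254, 0.211 and 0.258 and C57BL/6 glands at 0.161, 0.168 and 0.154. The Rpl34 groups did not overlap in either model, and the gap between them was larger by 0.24 ± 0.06 in 4T1. The count was 13 in all without BALB/c gland replicate 1 and 12 without C57BL/6 gland replicate 1. At 1 w p.i. limma called 0 members with 4 at an unadjusted p under 0.05, beside 0.24% of all genes higher and 0.0647% lower. For week 3, 1 member, Rps27l, was lower, beside 6.51% of all genes, and 2.64% of all genes were higher.

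Taken directly, 4T1 tumors exceeded Py230 tumors at 6 w p.i. for 46 members and were lower for 9 (24.1% and 16.7% of all genes), with a median of 0.13 beside 0.04. Rpl12 was higher by 0.32, and Rpl41, the shortest ribosomal protein, by 0.30. At 1 w p.i. 11 members were higher and 8 lower (11% and 8.43% of all genes). The count of 19 fell to 10 without 4T1 tumor replicate 1 or Py230 tumor replicate 3, and to 12 without 4T1 tumor replicate 3. Week 3 gave 3 higher and 15 lower (11.9% and 18.5%), which became 0 and 11 without Py230 tumor replicate 1. Only the strain differences described next are larger than 0.5 in these direct comparisons, apart from Rpl3l at 3 w p.i., which differed by 0.66 and was not called.

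Gene lists around the ribosome were set beside the members at 6 w p.i. For reference, 8360 of all 21650 genes (38.6%) were higher in 4T1 tumors and 6238 in Py230 tumors. The shares of all genes called lower are those given above for the same comparisons. All 30 ribosome assembly genes were higher in both models, with medians of 0.28 in 4T1 and 0.29 in Py230. Rrp9, a U3 snoRNP protein, was higher by 0.39 and the nucleolar helicase Ddx21 by 0.31 in 4T1 tumors. In Py230 tumors Ebna1bp2 was higher by 0.44 and Bop1 by 0.37, and both act in large subunit maturation. RNA polymerase I and its factors, which make the ribosomal RNA, were higher for 16 of 19 genes in 4T1 and 12 of 19 in Py230, where Polr1e was higher by 0.72 and the initiation factor Rrn3 by 0.26. All 15 proliferation genes were higher in both, with medians of 0.99 and 0.82.

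Other TOP messages were described from 23 scored genes for elongation and initiation factors and related proteins. In 4T1 tumors 15 were higher and 0 lower with a median of 0.17, led by Nap1l1 at 0.37 and Eif3l at 0.34. In Py230 tumors 3 were higher and 4 lower with a median of 0.01, and Eif4a2 and Eef2 were lower by 0.33 and 0.18 (differences of -0.33 and -0.18). The subtracted comparison called 10 of these genes higher in the 4T1 model and 0 lower, while it called 1 ribosome assembly gene higher and 2 lower. Mitochondrial ribosomal protein genes, which serve the separate ribosome of that organelle, were higher for 17 and lower for 2 of 78 in 4T1, and for 23 and 1 in Py230. Of the regulators, the kinase Akt1 was higher by 0.45 in 4T1 tumors and Mxd4, a Myc antagonist, differed by -0.30. There 8 of 19 regulators were higher and 3 lower, beside 38.6% of all genes higher. In Py230 tumors 11 were higher and 6 lower, with Cdkn1a at 0.66 and the mTOR partner Rptor at 0.34.

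**Figure D3:**
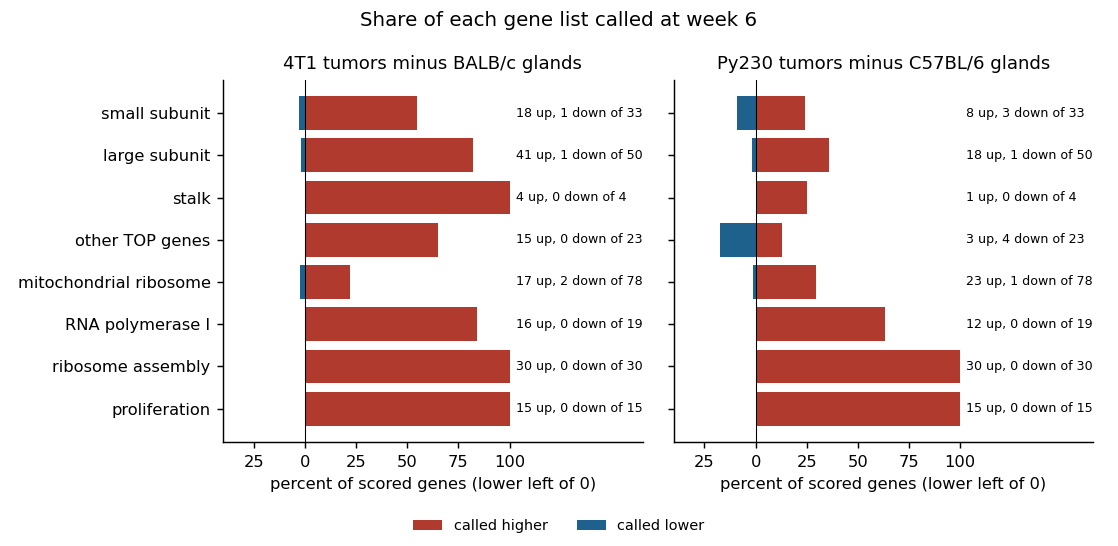
Bars give the percent of scored genes in each list that limma called higher (red, right of 0) or lower (blue, left of 0) in tumors than in the Matrigel glands of the same strain at week 6, with the counts printed beside them. The assembly and proliferation lists are fully called in both models, while the large subunit is at 41 of 50 in 4T1 and 18 of 50 in Py230. Of all 21650 genes, 8360 were higher in 4T1 tumors and 6238 in Py230 tumors.

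A set of 9 members separated the strains with no tumor present. In BALB/c compared with C57BL/6 Matrigel glands, Rpl29, Rpl21, Rps2, Rps18, Rpl26, Rpl3, Rpl30, Rpl35a and Rplp0 were lower at every week, and the other 74 members were called at no week. All 9 were lower and 0 higher, where 0.896% of all genes were lower and 0.79% higher at all 3 weeks. At each week the calls were 0 higher and 9 lower, beside 1.57% and 1.49% of all genes at week 1, 1.89% and 1.88% at week 3, and 1.67% and 2.18% at week 6. The median difference of all 83 members was 0.03, -0.01 and 0.05 at the 3 weeks. At week 1 the muscle marker means of replicates 1, 2 and 3 were 1.65, 2.61 and -0.341 in BALB/c glands and 1.56, 2.8 and -0.653 in C57BL/6 glands, so that same-numbered glands were alike in both strains.

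Rps2, a small subunit protein at the entry of the message channel, was named when the genes were chosen, so its values are a description. It scored 0.591, 0.578 and 0.57 in BALB/c glands at 1 w p.i. and 1.42, 1.42 and 1.44 in C57BL/6 glands. At 3 w p.i. it was 0.502, 0.531 and 0.59 against 1.5, 1.49 and 1.53, and at 6 w p.i. 0.564, 0.615 and 0.618 against 1.51, 1.38 and 1.44. The strains lay apart at every week, by -0.85, -0.96 and -0.85. The tumors kept the order of the strains, as 4T1 tumors ranged from 0.527 to 0.813 and Py230 tumors from 1.39 to 1.54 over all weeks. Within the BALB/c background Rps2 still took part in the week 6 shift, with 4T1 tumors at 0.813, 0.751 and 0.747, which was 0.17 ± 0.03 above the glands.

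Rpl29, a large subunit protein also known for binding heparan sulfate, had the widest gap. Its 9 BALB/c gland scores ran from -0.0425 to 0.114 and its 9 C57BL/6 gland scores from 1.16 to 1.23. The difference was -1.18, -1.23 and -1.17 at the 3 weeks, each with an SE of 0.04 (limma adjusted p of 5.9e-18 or less). Rpl21 differed by -0.93, -0.91 and -0.93, Rps18 by -0.61, -0.69 and -0.63, and Rpl26 by -0.55, -0.52 and -0.51. Rpl3, which lies near the peptidyl transferase center, differed by -0.49, -0.58 and -0.49. Rpl30 and Rpl35a differed by -0.36 to -0.22. Rplp0 was closest to the threshold at -0.23, -0.27 and -0.23, and it was not called at 1 or more weeks when single BALB/c or C57BL/6 glands were left out (BALB/c replicates 1, 2 and 3 and C57BL/6 replicates 1 and 3). After centering on the ribosomal protein median, Rpl35a was not called at 6 w p.i. (-0.18, limma adjusted p = 0.056), while the other 8 genes were.

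The same 9 genes were lower in 4T1 than in Py230 tumors at 3 w p.i., and at 6 w p.i. 7 of them were, while Rpl35a and Rplp0 differed by 0.03 and -0.01. At that week the gland-subtracted difference was called above 0 for Rps18 (0.32), Rpl21 (0.26), Rpl35a (0.25), Rpl29 (0.17) and Rps2 (0.13), beside a median of 0.10 over all members. After centering on the ribosomal protein median it was still called for Rps18 (0.23) and Rpl21 (0.17), and not for Rpl35a (0.16), Rpl29 (0.08) or Rps2 (0.04), with limma adjusted p of 0.15, 0.36 and 0.57.

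Copies of 6 of these 9 genes also separated the strains, in both directions, and no scored copy of Rpl3, Rpl30 or Rpl35a did. Of 119 scored copies of the 9 genes, 25 were called in 1 direction at all 3 weeks, 16 lower and 9 higher in BALB/c. Of 327 scored copies of the other 74 members, 4 were called (1.22%), beside 1.69% of all genes. Rps2-ps13 scored 1.47, 1.46 and 1.42 in BALB/c glands at 1 w p.i. and 1.03, 1.02 and 1.03 in C57BL/6 glands. Its groups did not overlap and their order was opposite to that of Rps2, with differences of 0.43, 0.33 and 0.44. Gm8210, a copy of Rpl29, was also higher in BALB/c glands (0.76, 0.73 and 0.79), at 1.14, 1.1 and 1.16 against 0.409, 0.348 and 0.366 at 1 w p.i. Other copies of these genes went the other way. Of 26 scored copies of Rps2, 2 were called lower and 2 higher in BALB/c, and of 17 of Rpl29, 5 lower and 3 higher. Gm13268, a copy of Rpl26, went the same way as its gene, from -0.975 to -0.685 in BALB/c and from 0.432 to 0.589 in C57BL/6 glands (differences of -1.27, -1.33 and -1.30). Rps18-ps1 was lower as well, by differences of -0.80, -0.80 and -0.76. The share of windows in common with other transcripts was no higher for the 9 genes, with medians of 76.1% against 84.3%, while the copies found per gene were 12 against 4. Each printed pair differs at 1 or 2 bases in 60. A pair that is not printed, Rpl21 and Rpl21-ps11, differed at 6 bases in its stretch and at 15 of 480 aligned bases. Whether such bases in the strains' own genomes moved reads between gene and copy was not tested.

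**Figure D4:**
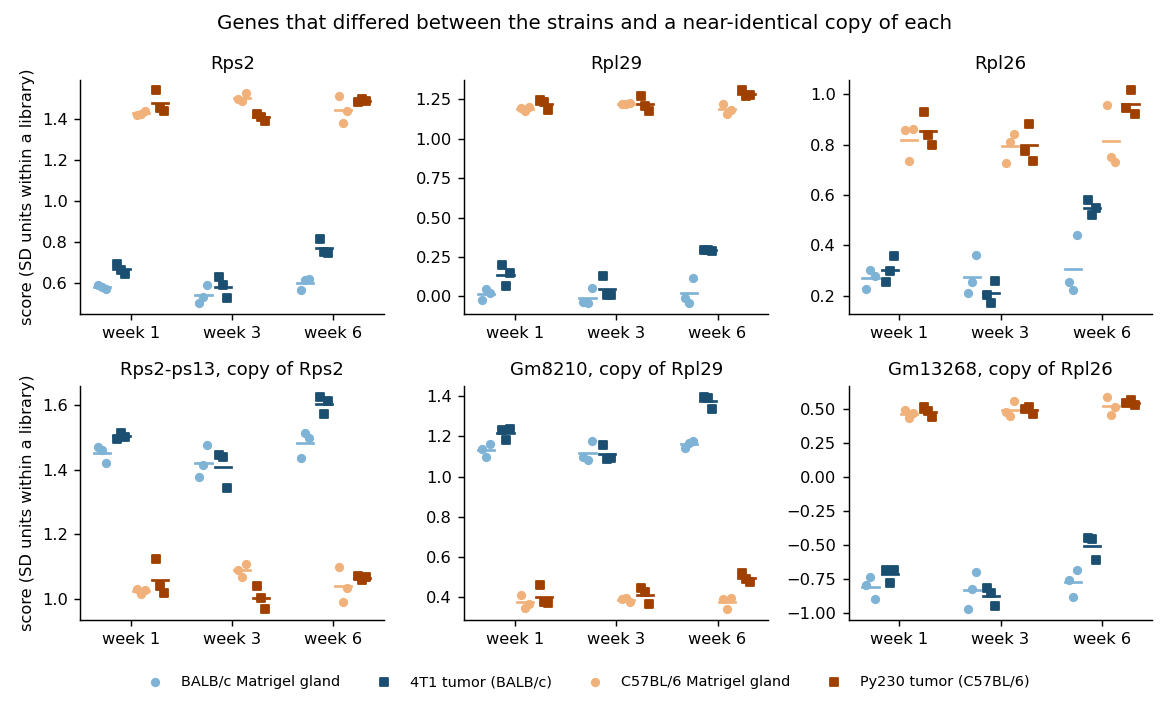
Scores (y axis, SD units within a library) of Rps2, Rpl29 and Rpl26 (top row) and a near-identical copy of each (bottom row) are shown for 36 libraries by week, with bars at the mean of 3. Blue BALB/c libraries lie below orange C57BL/6 libraries for the 3 genes and Gm13268 and above them for Rps2-ps13 and Gm8210, in tumors and glands alike.

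Some paralogs lay apart from the shared shift, while others moved with it. Rps27l, the paralog of Rps27 and a known p53 target, scored 0.956, 0.927 and 0.948 in Py230 tumors at 6 w p.i. and 0.588, 0.594 and 0.579 in C57BL/6 glands. It was higher by 0.36 ± 0.04 (limma adjusted p = 3.4e-07) with no overlap. At 3 w p.i. the tumors were at 1.07, 0.96 and 0.789 and the glands at 0.679, 0.646 and 0.645, a difference of 0.28. At 1 w p.i. the groups overlapped, with tumors at 0.685, 0.71 and 0.668 and glands at 0.721, 0.723 and 0.655. In 4T1 tumors at 6 w p.i. it stood at 0.782, 0.799 and 0.777 against 0.638, 0.632 and 0.728 in glands. That difference of 0.12 was smaller than in the Py230 model by 0.24 at 6 w p.i. (limma adjusted p = 0.0037) and by 0.25 at 3 w p.i. (limma adjusted p = 0.011). The week 3 difference between models was not called without Py230 tumor replicate 1 (limma adjusted p = 0.052). Rps27 itself was called in neither model at 6 w p.i. (0.03 and -0.08). Beside it, Cdkn1a, the p53 target with the smallest p of the regulators, was higher in Py230 tumors by 0.66, and Trp53 and Mdm2, named after their values were seen, by 0.35 and 0.18. In 4T1 tumors Cdkn1a differed by -0.03 and Trp53 by 0.02, which limma did not call, while Mdm2 was higher by 0.12.

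Rpl22 and its paralog Rpl22l1 parted in Py230 tumors. Rpl22 scored 1.2, 1.19 and 1.23 in these tumors at 6 w p.i. and 1.55, 1.38 and 1.46 in glands, lower in every tumor by 0.26 (difference of -0.26 ± 0.05, limma adjusted p = 0.00019). Rpl22l1 was at 0.0711, -0.0897 and -0.0326 against -0.0953, -0.155 and -0.136, a difference of 0.11 that was not called. At 3 w p.i. Rpl22 was lower (-0.18) and Rpl22l1 higher (0.16), both among the calls at that week whose number dropped without tumor replicate 1. In 4T1 tumors at 6 w p.i. Rpl22 differed by 0.00 and Rpl22l1 was higher by 0.21. The model difference was called for Rpl22 (0.26 ± 0.07, limma adjusted p = 0.0086), but not after centering on the ribosomal protein median (0.17, limma adjusted p = 0.077).

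Rps4l, the paralog of Rps4x, was lower than in glands in both tumors at 6 w p.i. It was at -0.24, -0.31 and -0.203 in 4T1 tumors and 0.183, 0.0605 and 0.224 in BALB/c glands at 6 w p.i., and at -0.0755, -0.152 and -0.146 in Py230 tumors and 0.21, 0.208 and 0.269 in C57BL/6 glands. The tumors were below the glands in each model, by differences of -0.41 and -0.35 (limma adjusted p = 5.8e-05 and 0.00045), and the models did not differ by a called amount (-0.05 ± 0.11). Rps4x was higher in 4T1 tumors by 0.13 and stood at 0.01 in Py230.

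Rpl3l is the paralog of Rpl3 that striated muscle is known to use. It had scores of -1.13, -1.11 and -1.14 in 4T1 tumors and 0.807, 1.1 and 0.735 in BALB/c glands at 6 w p.i., a difference of -2.01 ± 0.56 (limma adjusted p = 0.0034). Elsewhere it spread widely within groups, as in BALB/c glands at 1 w p.i. with 0.0657, 1.11 and -1.07. The muscle markers spread alongside, from -0.597 to 0.231 in 4T1 tumors and from 2.26 to 2.71 in BALB/c glands at 6 w p.i., and from -0.341 to 2.61 in BALB/c glands at 1 w p.i. Their part in the Rpl3l difference was not tested. Of the other paralogs, Rpl7l1 was higher in both models at 6 w p.i. (0.14 and 0.17) like its partner Rpl7 in 4T1 (0.15), while Rpl39l was called in neither and Rpl39 was higher in 4T1 by 0.24.

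**Figure D5:**
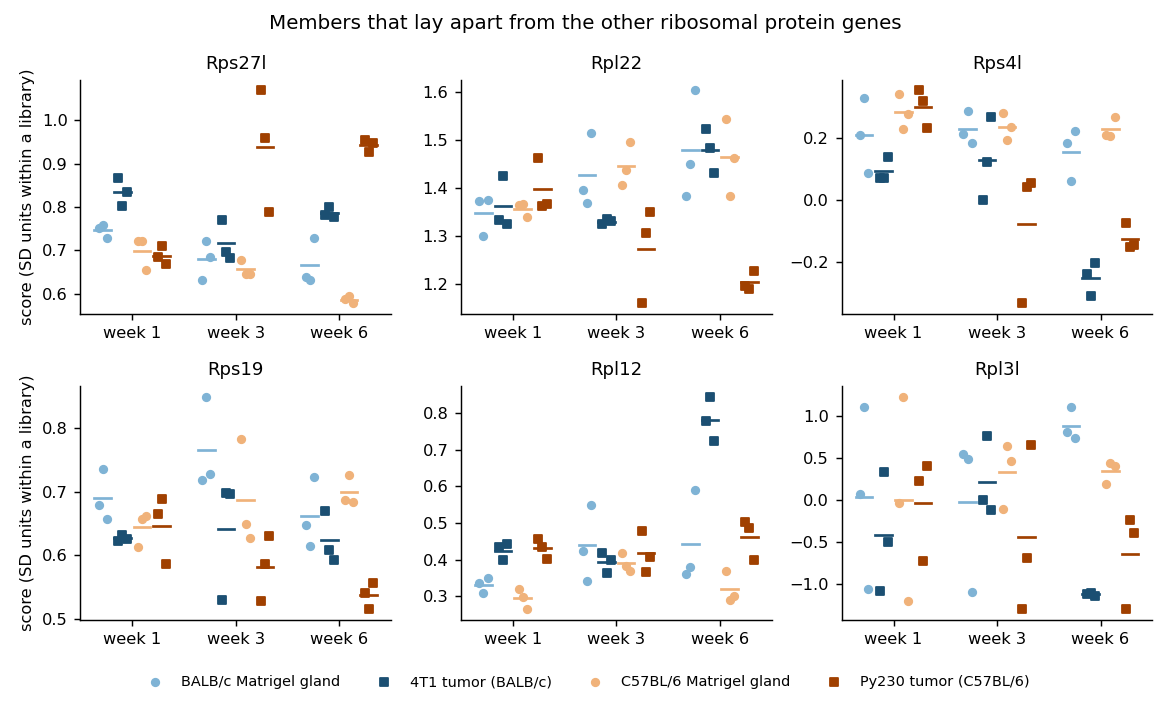
Scores (y axis, SD units within a library) of 6 members that lay apart from the rest are shown for 36 libraries by week, with bars at the mean of 3. At week 6 Rps27l is highest in Py230 tumors (0.927 to 0.956), Rpl22 lowest there, Rps4l below 0 in both tumors, Rpl12 highest in 4T1 tumors, and Rpl3l is at -1.14 to -1.11 in all 3 4T1 tumors.

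To see which members left the shared level, each library was centered on its ribosomal protein median and the fit repeated. In 4T1 tumors at 6 w p.i. 22 members then lay above and 14 below their level in the glands, where 15.4% and 34.9% of all genes did. In Py230 tumors 15 lay above and 12 below (18.5% and 21.2% of all genes). Centering makes the members split around their own median and moves every other gene by the same subtraction. The shares of all genes are thus not a like reference for these counts. Rpl27, Rpl35, Rpl37, Rpl9 and Rps27a were above in both models, and Rpl22, Rps15, Rps19, Rps3 and Rps4l were among those below in both. The 5 shared genes above were thus part of 22 in 4T1 and 15 in Py230, and the 6 below part of 14 and 12, all among 83 members. Whether lists of these sizes shared more genes than unrelated lists would was not tested. Rps14 alone was below in 4T1 and above in Py230. Rps19, the gene most often mutated in Diamond-Blackfan anemia, scored 0.541, 0.515 and 0.556 in Py230 tumors and 0.687, 0.727 and 0.685 in C57BL/6 glands. Before centering it was lower by 0.16 there without overlap (difference of -0.16 ± 0.04, limma adjusted p = 0.0040) and not called in 4T1 tumors, which stood at 0.67, 0.609 and 0.593 beside glands at 0.648, 0.615 and 0.723.

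Promoters were read from RefSeq (GRCm38.p6, 250 bases before to 50 after the start), which held 63 of the 84 genes. The ETS-type motif CCGGAAG, on either strand, was present in 26 of 63 (41.3%) against 9.93% of 27025 promoters. The letters CTTTC, as in a TOP tract, lay within 50 bases before or after the start on the coding strand in 32 of 63 (50.8%) against 14.6%. Matches before the start are counted too, although they are not part of the message. These 2 motifs can share a base and were counted separately, and a match is a description only. Promoters of 100 bases before and 20 from the start are shown for Rpl12, which was among the members furthest above the median in 4T1 tumors, and for Rps27l and Rpl22, which lay apart from it in Py230 tumors, with matches in capitals. They lie at chr2:32961612-32961731 (plus strand), chr9:66945986-66946105 (plus strand) and chr4:152325626-152325745 (plus strand).
Rpl12: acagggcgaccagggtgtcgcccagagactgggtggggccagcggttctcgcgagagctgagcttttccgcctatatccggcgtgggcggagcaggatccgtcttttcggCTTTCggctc
Rps27l: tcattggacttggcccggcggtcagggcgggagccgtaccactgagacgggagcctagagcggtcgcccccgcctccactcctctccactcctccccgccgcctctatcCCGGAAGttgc
Rpl22: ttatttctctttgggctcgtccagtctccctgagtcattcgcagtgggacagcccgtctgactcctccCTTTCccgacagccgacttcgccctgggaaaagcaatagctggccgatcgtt
Rpl12 and Rpl22 thus held CTTTC and Rps27l held CCGGAAG in the window shown. The match of Rpl22 lay before the start. In the same window Rpl27 and Rpl34, which also lay above the median in 4T1 tumors, held 0 matches. Rps2 and Rpl3l held 0 as well, and Rps18 held 1.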

How the data were processed

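Total RNA of 36 mammary glands and tumors (12 groups of 3) was made into stranded libraries and sequenced as pairs of 75 base reads. Per the labels and the study's methods, the authors aligned reads to mm10 with STAR, counted them per gene with summarizeOverlaps and analysed them with DESeq2. Tool versions, annotation and the treatment of reads with several matches were not given in the sources used here. The deposited expression score is not a count: in each library the 21650 genes had a mean of 0 and an SD of 1, and the step that made it was not stated. The test was therefore chosen for scores and no depth or counting interval could be had. From the deposited comparison tables, only gene symbols and the authors' mean normalized count (over the samples of that table) were used, while their fold changes and p-values, and a gene set table, were not used. Every score column matched 1 sample.

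limma 3.58.1 (R 4.3.3) was fitted to all 21650 genes and 36 libraries with 1 mean per group and with trended and robust moderation, and two-sided p-values received a Benjamini-Hochberg adjustment across the 21650 genes, with calls at 0.05. An exact permutation test of 3 against 3 libraries cannot go below p = 0.1. The members and lists were chosen with earlier results of these data known. Named genes were Rps2, the paralogs and their partners, the stalk, the Mdm2 binders, Rpsa, Rack1, Rps6, Rps27a and Fau, the 2 members furthest above and below the member median in each comparison with an authors' mean count of at least 100, members called between strains at all 3 weeks, and the 2 genes of smallest p in each list. Other named genes were chosen after their values were seen, and some genes that the rule would name are not reported here. Alternatives were a robust line per library, cyclic loess, centering on the ribosomal protein median, only the groups compared, plain moderation, a mean count of at least 10, a replicate block and leaving out each library. Replicate numbers paired the samples in 1 comparison, as deviations of same-numbered BALB/c and C57BL/6 Matrigel glands at week 1 correlated at 0.413, 0.789 and 0.558. A block shared by these glands was added after the data were seen.

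Copies were found by blastn 2.17.0+ (Python 3.11.15) at 95% identity over 80% of the coding sequence, and figures were drawn with matplotlib 3.10.9. The fit was tested on simulated data for 4T1 tumors against BALB/c glands at 6 w p.i. over 21650 genes, where 34% of 50 genes changed by 0.2, 78% of 100 changed by 0.4 and 94% of 50 changed by 0.8 score units were called, with 4 false calls. Genes were drawn independently and few were changed. In the real comparison 38.6% of all genes were called higher, so these rates need not hold there.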

Additional observations from a re-analysis of the deposited data

Results flagged for a closer look

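The tumor difference from its own Matrigel gland was not the same size in both models for 22 results, by limma on the 4T1 difference minus the Py230 difference. Rps27l had the smaller difference in the 4T1 model, by -0.25 at 3 w p.i. and -0.24 at 6 w p.i. All others were at 6 w p.i. and larger in the 4T1 model. In the large subunit these included Rpl12 (0.19), Rpl14 (0.17), Rpl21 (0.26), Rpl22 (0.26), Rpl23 (0.20), Rpl29 (0.17), Rpl31 (0.20), Rpl34 (0.24), Rpl35a (0.25), Rpl36 (0.19), Rpl41 (0.20), Rpl5 (0.21) and Rplp1 (0.16). In the small subunit they were Rps12 (0.23), Rps15a (0.18), Rps18 (0.32), Rps2 (0.13), Rps28 (0.21) and Rpsa (0.18). Rpl22 had a Py230 difference called lower and a 4T1 difference of 0.00. Groups of 3 libraries were too small to look for single outlying samples.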

How the results depend on the processing

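No called value changed sign under any alternative that was run. For the median member difference, 105 recomputed values stayed within the replicate spread and 3 moved. Of the recomputed values for single genes 945 kept their side of the threshold, 29 lost the call and 1 gained it. Moderation without trend and robustness changed no count of members called by over 1.5 times. With a robust line per library the count of members called was 13 for Py230 against C57BL/6 glands at week 3 (3 higher, 10 lower), 6 for Py230 week 3 against week 1, and 2 for the difference between models at week 3, and the Py230 week 6 median was 0.00696 with 15 higher and 10 lower. With cyclic loess these counts were 11 for Py230 at week 3, 1 for 4T1 week 3 against week 1 and 2 for the models at week 3, the 4T1 week 6 median was 0.103, and the Py230 week 6 split was 19 to 6. Loess also gave 18 higher and 8 lower between tumors at week 1, the robust line 5 and 13 at week 3, and loess 16 and 3 for the models at week 6. Centered on the ribosomal protein median, counts were 39 (28 higher, 11 lower) between tumors at week 3, 1 for 4T1 at week 1, 36 for 4T1 at week 6 (22 and 14), 16, 37 and 21 between strains (7, 28 and 13 higher), 31 for 4T1 week 6 against 3 (21 and 10), 9 for Py230 week 3 against 1, 3 for the models at week 3 and 11 at week 6 (3 and 8), and Py230 at week 6 gave 15 and 12. Of all genes, the centered fit called 27.9% between tumors at week 3, 32.9% for 4T1 at week 1 and 50.4% at week 6. Between strains it called 4.08%, 16.5% and 3.88%, and for 4T1 week 6 against 3 it called 49.6%. For Py230 it called 15.5% in week 3 against 1 and 39.7% at week 6. For the models it called 7.01% at week 3 and 20.8% at week 6. A mean count of at least 10 gave 2 for the models at week 3. Fitting only the groups compared gave 6 between tumors at week 3, and 0 for 4T1 at week 1, Py230 at week 3, Py230 week 3 against 1 and the models at week 3.

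Deviations of same-numbered libraries correlated above 0.1 in 10 of 36 pairs (-0.466 to 0.789), and in all 3 pairs of a comparison for the Matrigel glands of both strains at week 1 alone. A block shared by those glands gave 9 members lower and changed no call among the 9 strain genes. In the other comparisons the samples share only a number. With replicate number as a block within each kind of tumor or gland, the counts were 35 for 4T1 at week 1, 11 for Py230 at week 3 (7 higher, 4 lower), 1 for 4T1 week 3 against 1, 8 for Py230 week 3 against 1, 5 for week 6 against 3 and 3 for the models at week 3, and the other counts stayed within 1.5 times.

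Leaving out 1 library at a time, counts ranged from 10 to 18 between tumors at week 1, 11 to 20 at week 3 and 39 to 50 at week 6. They ranged from 0 to 20 for 4T1 at week 1 and 45 to 62 at week 6, from 0 to 33 for 4T1 week 3 against 1 and 58 to 71 for week 6 against 3. For Py230 they ranged from 1 to 13 at week 3 and 16 to 35 at week 6, from 2 to 12 for week 3 against 1 (12 without Py230 week 3 replicate 3) and from 0 to 4 for week 6 against 3. For the models they ranged from 0 to 5 at week 3 (0 without Py230 replicate 1, 5 without its replicate 3, 3 without 4T1 replicate 3, 2 without BALB/c gland replicate 3) and 12 to 27 at week 6. The strain median at week 3 ranged from -0.0398 to 0.0148, the lowest without BALB/c gland replicate 3. The Rpl3l fall in 4T1 tumors from week 3 to 6 (limma adjusted p = 0.047) lost its call in every leave-out, and Rps4l lost it in Py230 tumors at week 3 without replicate 1 (limma adjusted p = 0.11).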
